A study of Homo sapiens with 10 samples.

Results

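The interleukin-1 family genes read here are IL1A, IL1B, IL1RN, IL18 and IL33, which encode ligands, and IL1R1, IL1R2, IL1RAP and IL1RL1, which encode receptors. They were chosen by name, as the rows that carry these symbols, and all 9 were found among the 26256 genes of the count table of the untreated cells and among the 55736 genes of the count table of the Nutlin-3a experiment. RNA-seq had been performed on 10 libraries of MCF10A, a non-transformed human mammary epithelial line. In the untreated experiment 2 libraries came from parental MCF10A cells and 2 from G12V cells, which are MCF10A cells labelled H-RAS Gv12. These had been transduced with a lentivirus that expresses the HRas oncogene, along with a GFP vector, selected with hygromycin and grown on as a transformed population. The sources do not say how many separate transductions the 2 libraries stand for. They describe no transduction or selection of the parental cells, so the effects of these steps and of HRas cannot be told apart here. In the Nutlin-3a experiment parental MCF10A cells were given 10 µM Nutlin-3a, which frees p53 from its inhibitor MDM2, or the solvent DMSO for 4 h, in 3 libraries each. All cultures shared a medium with EGF, insulin, hydrocortisone, cholera toxin and horse serum, and the labels call the replicates biological without naming what separates them, so the p-values measure the spread between these libraries.

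Total counts per library ran from 21538593 to 23683975 in the untreated experiment and from 15453226 to 17378734 in the Nutlin-3a experiment. HRAS, the introduced gene, had 72.6 and 65.9 CPM in MCF10A and 631 and 515 CPM in G12V cells, where CPM are counts scaled to the sequencing depth of the library, and among the genes that p53 activates CDKN1A and MDM2 rose by 2.16 and 2.54 on the log2 scale after Nutlin-3a, so the targeted genes moved in the direction that the labels of both experiments give. Of 8 epithelial markers fixed for the labelled cell type, all 8 were counted in parental cells, while KRT5, KRT14, KRT17, CDH1, EPCAM and TP63 were lower in G12V cells. KRT14 was at least 3150-fold lower, KRT17 2080-fold, TP63 1100-fold and CDH1 455-fold, EPCAM 7.16-fold and KRT5 3.89-fold. KRT8 and KRT18 were not DE, with log2 fold changes of 0.18 and -0.71. The summed level of the list, most of it KRT5, was 1363 to 1662 CPM in G12V cells against 6856 to 8415 CPM in MCF10A. Among 10 leukocyte markers AIF1 and TYROBP had 0 reads in each library and PTPRC, which encodes CD45, at most 1 read. The summed level of the leukocyte list was 26.6 to 42.5 CPM in MCF10A and 23.6 to 41.8 CPM in G12V cells, and CD14 made up most of it. CSF1R, a receptor gene of macrophages, was the leukocyte marker that was DE, and it was lower in G12V cells, with 149 and 78 counts in MCF10A against 4 and 3. Of 8 fibroblast markers 4 were tested and LUM, which encodes lumican, was DE and higher, and the summed level of the list was 37.5 to 64.9 CPM in MCF10A and 53.4 to 60.1 CPM in G12V cells. The part of these marker changes in the results below was not tested.

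Interleukin-1 alpha and interleukin-1 beta, the products of IL1A and IL1B, bind the receptor IL1R1, which then recruits the co-receptor IL1RAP and passes the signal through MYD88 and IRAK kinases to NF-kB. The antagonist encoded by IL1RN occupies IL1R1 without recruiting the co-receptor, and IL1R2 is a decoy that binds ligand and does not signal. IL33 acts through IL1RL1, also called ST2, with the same co-receptor, whereas IL18 has receptors of its own. In epithelia interleukin-1 alpha is known as an alarm signal that is stored in the cell and released on damage, and both agonists are known parts of the secretion of senescent and of Ras-transformed cells.

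IL1A, IL1B and IL1RN lie in a cluster of ligand genes on chromosome 2, and the windows of 250 bases before their starts are shown because these genes moved in opposite directions in G12V cells. They are RefSeq sequences of build GRCh38.p14, printed 5′ to 3′ on the strand of the gene, with capitals for matches to the AP-1 motif TGANTCA on either strand and to TATAAA on the strand of the gene.
IL1A, chr2:112784494-112784743, minus strand: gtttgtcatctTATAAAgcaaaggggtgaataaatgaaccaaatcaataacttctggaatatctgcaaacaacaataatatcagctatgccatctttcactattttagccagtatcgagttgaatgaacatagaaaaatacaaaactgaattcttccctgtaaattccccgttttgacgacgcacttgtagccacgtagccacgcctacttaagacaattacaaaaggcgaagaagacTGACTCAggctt
IL1B, chr2:112836780-112837029, minus strand: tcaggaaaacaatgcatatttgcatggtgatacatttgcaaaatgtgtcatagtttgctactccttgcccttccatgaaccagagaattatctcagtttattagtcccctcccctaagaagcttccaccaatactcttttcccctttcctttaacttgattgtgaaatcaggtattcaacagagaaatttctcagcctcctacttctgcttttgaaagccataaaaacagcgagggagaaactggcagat
IL1RN, chr2:113117721-113117970, plus strand: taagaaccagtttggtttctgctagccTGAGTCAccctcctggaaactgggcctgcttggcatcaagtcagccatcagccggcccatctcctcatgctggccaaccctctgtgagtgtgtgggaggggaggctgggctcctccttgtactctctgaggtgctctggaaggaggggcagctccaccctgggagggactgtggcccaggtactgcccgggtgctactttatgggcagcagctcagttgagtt

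The IL1A window held an AP-1 match that begins 12 bases before the start and a TATAAA 239 bases before it. The IL1RN window held an AP-1 match at 223 bases before the start, and the IL1B window held neither. None of the 3 windows held the NF-kB consensus. Of 35116 such windows in the RefSeq table, 6.57% held TGANTCA on either strand, 9.96% the NF-kB consensus on either strand and 6.80% TATAAA on the strand of the gene. RefSeq lists 2 starts for IL1A and 3 for IL1RN, of which the most upstream is shown, and counts per gene do not tell which start was used. The window of the other IL1A start, which overlaps the window shown, held 2 AP-1 matches and no TATAAA. These begin 105 and 55 bases before that start, and the former is the match already shown. Of the other IL1RN starts one window held a TATAAA 30 bases before the start, and neither held an AP-1 match. In all, 17 windows were found for 8 of the 9 genes. A match is a description of the letters and not a binding site.

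The comparison of G12V with MCF10A cells asks which genes change with HRas-induced transformation. Both agonists of IL1R1 were up-regulated in G12V cells, IL1A by 12.3-fold and IL1B by 57.3-fold. The antagonist gene IL1RN had no read in either G12V library and was down-regulated by at least 14.7-fold, and the co-receptor gene IL1RAP was down-regulated by 2.37-fold. IL18, IL1R1, IL1R2 and IL1RL1 did not pass the test, and IL33 had too few reads to be tested. Differentially expressed (DE) genes are those with an adjusted p under 0.05 in edgeR's quasi-likelihood test and an absolute log2 fold change above 0.5. By this rule 2 of the 8 genes tested were higher and 2 lower, where 5.01% of the 14376 genes tested were DE and higher and 5.95% DE and lower, 11.0% in all. A fit that drops an MCF10A library leaves a single parental library, whose own spread it cannot estimate. All calls of the comparison, these 4 among them, were lost without MCF10A replicate 1. When that library was left out, the quasi-likelihood test of edgeR called no gene DE (2830 had an unadjusted p under 0.05, among them 4 of the 8 family members), whereas without any other single library the 4 genes remained DE.

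**Figure D1:**
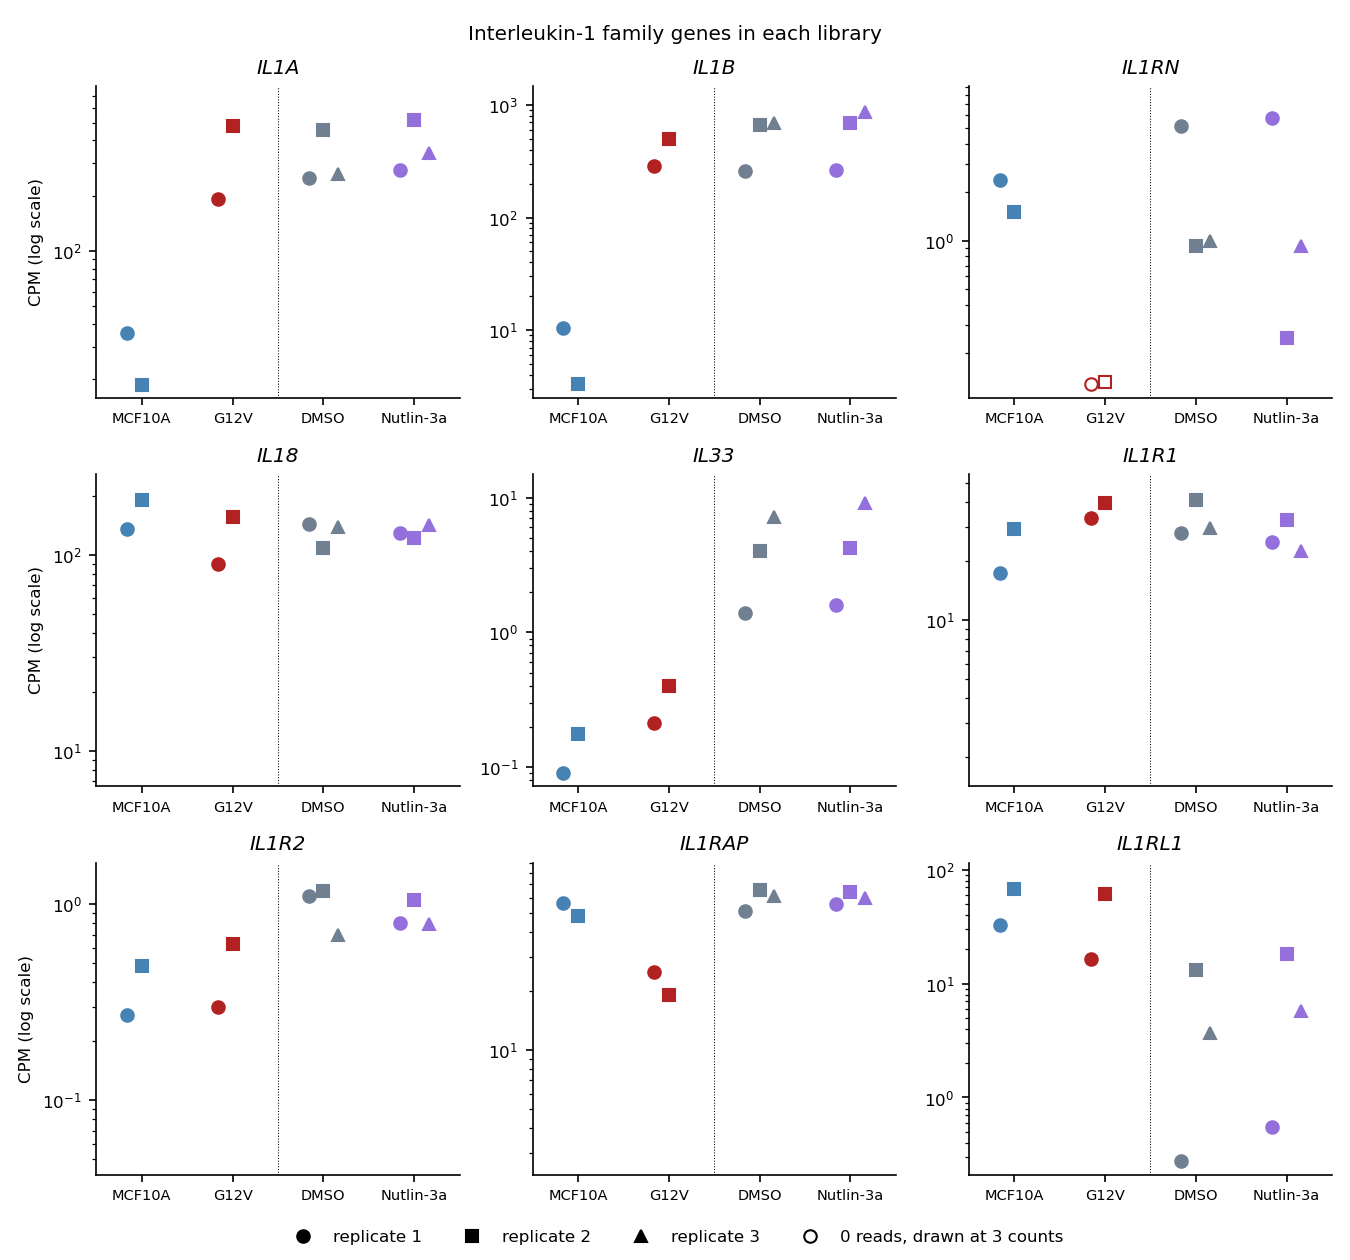
Level of each gene in each library, in CPM on a log axis, by group, with the shape of the point giving the replicate number. The dotted line parts the untreated experiment on the left from the Nutlin-3a experiment on the right, which were normalized separately, and the open points of IL1RN are the 2 G12V libraries with 0 reads, drawn at 3 counts. IL1A and IL1B stand more than 5 times lower in the MCF10A libraries than in any other library, and IL1RL1 spreads widely between replicate numbers.

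IL1A, on chromosome 2 from 113531492 to 113542971 of hg19, had 35.6 and 18.7 CPM in the MCF10A libraries and 193 and 478 CPM in the G12V libraries. Both G12V libraries stood above both MCF10A libraries, although the G12V libraries themselves differed widely. The means were 27.2 ± 12 CPM (SD, n = 2) and 335 ± 201 CPM (SD, n = 2), which differ on the log2 scale by 3.63 (SE 0.54, edgeR quasi-likelihood adjusted p = 0.0121). The log2 fold change was 2.83 without G12V replicate 2, the library with the most IL1A, and 4.18 without MCF10A replicate 1, where it was not DE (edgeR quasi-likelihood adjusted p = 0.123).

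IL1B, on chromosome 2 from 113587337 to 113594356, had 10.4 and 3.30 CPM in MCF10A and 285 and 498 CPM in G12V cells. These levels stand for 228 and 75 against 6667 and 11171 reads, so the groups were far apart. The means were 6.83 ± 4.99 CPM (SD, n = 2) and 392 ± 151 CPM (SD, n = 2), which differ on the log2 scale by 5.84 (SE 0.64, edgeR quasi-likelihood adjusted p = 0.00531). Without MCF10A replicate 1 the log2 fold change was 6.90 and not DE (edgeR quasi-likelihood adjusted p = 0.0658), and without MCF10A replicate 2 it was 5.24.

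IL1RN, on chromosome 2 from 113875470 to 113891593, had 52 and 34 reads in MCF10A, that is 2.36 and 1.50 CPM, and 0 reads in both G12V libraries. A count of 0 allows up to 3 reads in a library, or 0.131 CPM on average over the G12V libraries, so IL1RN was at least 14.7-fold lower (edgeR quasi-likelihood adjusted p = 0.00969). The gene was low already in MCF10A, with 1.93 ± 0.612 CPM (SD, n = 2). RNA from bulk cultures cannot tell fewer cells that express a gene from less RNA per cell, and this holds for each value here.

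The balance of antagonist and agonist was read within each library, which is free of the scaling between libraries. For each 1000 reads of IL1A and IL1B together there were 51.4 and 68.1 reads of IL1RN in MCF10A. The G12V libraries had 0 reads of IL1RN against 11176 and 21878 reads of the agonists, which allows up to 0.268 and 0.137 for each 1000. These bounds cover counting error only. The exact permutation test, two-sided, gave p = 0.333, which is the smallest value that 2 against 2 libraries allow.

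IL18, on chromosome 11 from 112013974 to 112034840, encodes a ligand that epithelial cells make at rest. It had 136 and 190 CPM in MCF10A and 89.6 and 156 CPM in G12V cells, and the groups overlapped. The log2 fold change was -0.41 (SE 0.32, edgeR quasi-likelihood adjusted p = 0.502). IL33, on chromosome 9 from 6215786 to 6257983, encodes a nuclear alarm cytokine and was barely expressed in the untreated cells. It had 2 and 4 reads in the MCF10A libraries and 5 and 9 reads in the G12V libraries, so it was not tested there.

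Of the receptors, IL1RAP changed. IL1RAP, on chromosome 3 from 190231840 to 190374986, had 56.5 and 48.3 CPM in MCF10A and 25.1 and 19.2 CPM in G12V cells, with little spread within either group. The log2 fold change was -1.24 (SE 0.23, edgeR quasi-likelihood adjusted p = 0.0236). IL1R1, the signalling receptor on chromosome 2 from 102686836 to 102796334, had 17.5 and 29.3 CPM in MCF10A and 33.3 and 39.8 CPM in G12V cells. The groups did not overlap, but the difference of 0.64 on the log2 scale was not DE (SE 0.30, edgeR quasi-likelihood adjusted p = 0.250).

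IL1R2, the decoy receptor on chromosome 2 from 102608306 to 102644884, was near the lower end of detection with 6 and 11 reads in MCF10A and 7 and 14 in G12V cells. IL1R2 stood at 0.27 on the log2 scale (SE 0.60, edgeR quasi-likelihood adjusted p = 0.841). For each 1000 reads of IL1R1 there were 15.6 and 16.5 reads of IL1R2 in MCF10A and 8.99 and 15.7 in G12V cells (p = 0.667, exact permutation test, two-sided). IL1RL1, the receptor of IL33 on chromosome 2 from 102927962 to 102968497, had 33.0 and 67.3 CPM in MCF10A and 16.6 and 61.3 CPM in G12V cells. The groups overlapped, with IL1RL1 at -0.37 on the log2 scale (SE 0.63, edgeR quasi-likelihood adjusted p = 0.790). It turned to 0.24 without MCF10A replicate 2 and to 0.29 without G12V replicate 1, and without G12V replicate 2 it was -1.60 and DE (edgeR quasi-likelihood adjusted p = 0.0264), so the direction of IL1RL1 depends on single libraries.

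**Figure D2:**
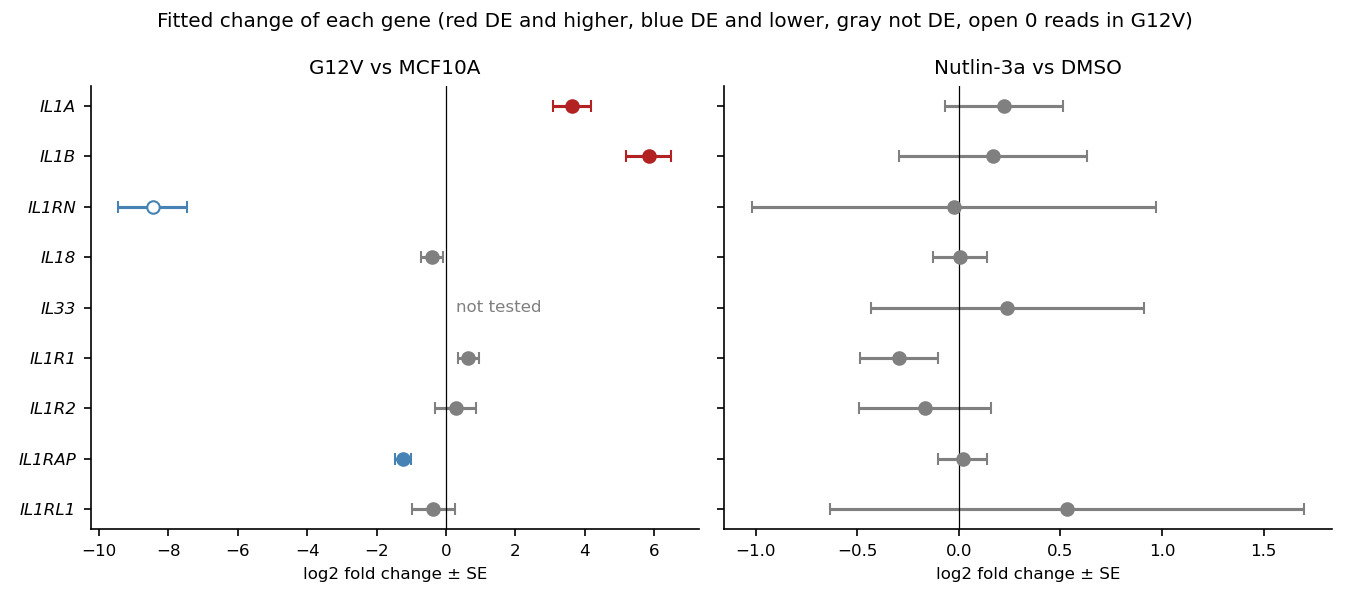
Log2 fold change of each gene with its SE, in G12V against MCF10A cells on the left and in Nutlin-3a against DMSO on the right, on axes of different range. On the left IL1A and IL1B were DE and higher, and IL1RAP and IL1RN DE and lower. The open point of IL1RN, with 0 reads in G12V cells, depends on the count added before the log, since the fit gave -8.45 with a prior count of 0.125 and -4.51 with one of 2. On the right none was DE.

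Levels of different genes were compared per kb of exon, as CPM per kb, as a description. In MCF10A the order began with IL18 at 62.6 ± 14.9 CPM per kb (SD, n = 2), followed by IL1A at 13.5 ± 5.95, IL1RL1 at 8.73 ± 4.23 and IL1RAP at 4.67 ± 0.516. IL18 stood clear of the rest, whereas the ranges of IL1A and IL1RL1 overlapped. In G12V cells IL1A at 166 ± 99.8 CPM per kb (SD, n = 2) and IL1B at 130 ± 50.1 led, with overlapping ranges, and IL18 followed at 47.1 ± 18.0, below both. The order of the receptors also changed, since IL1R1 at 5.13 ± 0.643 CPM per kb (SD, n = 2) stood above IL1RAP at 1.97 ± 0.371 in G12V cells, while in MCF10A IL1RAP stood above IL1R1 at 3.29 ± 1.18.

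The other genes of the pathway were taken by list. Of 13 further genes of the family 4 had enough reads to be tested, IL18R1, IL18BP, SIGIRR and IL1RAPL2, and none was DE. IL18R1, a receptor chain for IL18, had 2.68 and 2.38 CPM in MCF10A and 5.17 and 10.1 CPM in G12V cells, a difference of 1.59 on the log2 scale that was not DE (edgeR quasi-likelihood adjusted p = 0.0694). Of 19 genes that relay the signal from the receptor, among them MYD88, IRAK1, IRAK4 and TRAF6, all 19 were tested and none was DE. Over all genes tested 11.0% were DE. PELI2 and TAB3 lay just outside the threshold. PELI2 had 16 and 144 reads in MCF10A and 2 in each G12V library, at least 27.0-fold fewer (edgeR quasi-likelihood adjusted p = 0.0521). TAB3 changed by -0.79 on the log2 scale (edgeR quasi-likelihood adjusted p = 0.0512). The median log2 fold change of the relay list was -0.0083, against -0.0011 over all genes tested.

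Of 15 tested genes that process or release these ligands, 1 was DE and higher and 3 were DE and lower. Over all genes tested 5.01% were DE and higher and 5.95% DE and lower, so the count of 1 lay near the background. MEFV, which encodes the inflammasome sensor pyrin, rose from 1.77 and 1.41 CPM to 44.6 and 66.6 CPM, by 5.12 on the log2 scale (SE 0.33, edgeR quasi-likelihood adjusted p = 0.00124). PYCARD, the adaptor that links such sensors to caspase-1, had 18 and 33 reads in MCF10A and 0 with G12V, at least 8.67-fold fewer (edgeR quasi-likelihood adjusted p = 0.0164). The parental cells of the Nutlin-3a experiment, counted on another annotation, also had 0 reads of PYCARD with DMSO and at most 1 with Nutlin-3a. CAPN1, a calpain of the kind that cleaves the interleukin-1 alpha precursor, and S100A13, a partner in its release, changed by -1.21 and -1.01 on the log2 scale, and neither was DE without MCF10A replicate 2. CASP1, the protease that matures interleukin-1 beta, had 25.0 and 30.4 CPM in MCF10A and 24.8 and 42.3 CPM in G12V cells and was not DE.

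Of 17 genes that encode NF-kB subunits and their regulators, 6 were DE and higher and 0 lower, against 5.01% and 5.95% of all genes tested. The median log2 fold change of the list was 0.65. The regulators TNFAIP3, TNIP1, NFKBIE, IKBKG and BCL3 changed by 1.86, 1.79, 1.45, 1.38 and 0.89 on the log2 scale, and the subunit gene NFKB2 by 1.13. BCL3 was not DE without MCF10A replicate 2, without G12V replicate 1 or without a filter. The subunit genes NFKB1 and RELA had log2 fold changes of -0.016 and -0.039 and were not DE.

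Of 17 tested genes that interleukin-1 is known to induce, 13 were up-regulated and 1 was down-regulated, against 5.01% and 5.95% of all genes tested. The median of the list was 4.06 on the log2 scale. These genes are also induced by other signals. CXCL8, the neutrophil chemokine interleukin-8, had 18.3 and 16.3 CPM in MCF10A and 218 and 360 CPM in G12V cells. CSF3, which encodes G-CSF, had 18.6 and 11.6 CPM against 570 and 442 CPM, a rise of 5.07 on the log2 scale (SE 0.34, edgeR quasi-likelihood adjusted p = 0.00127). IL6 was counted 0 and 1 times in the MCF10A libraries and 902 and 856 times in the G12V libraries, at least 286-fold higher. The others that rose were CXCL1, CXCL2, CXCL3, CCL2, CCL20, LIF, ICAM1, TNFAIP2, IER3 and TNFAIP6, of which IER3 was not DE without MCF10A replicate 2. PTGES, which encodes a prostaglandin E synthase, fell by 2.25 on the log2 scale. The share of these changes that depends on interleukin-1 was not tested.

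**Figure D3:**
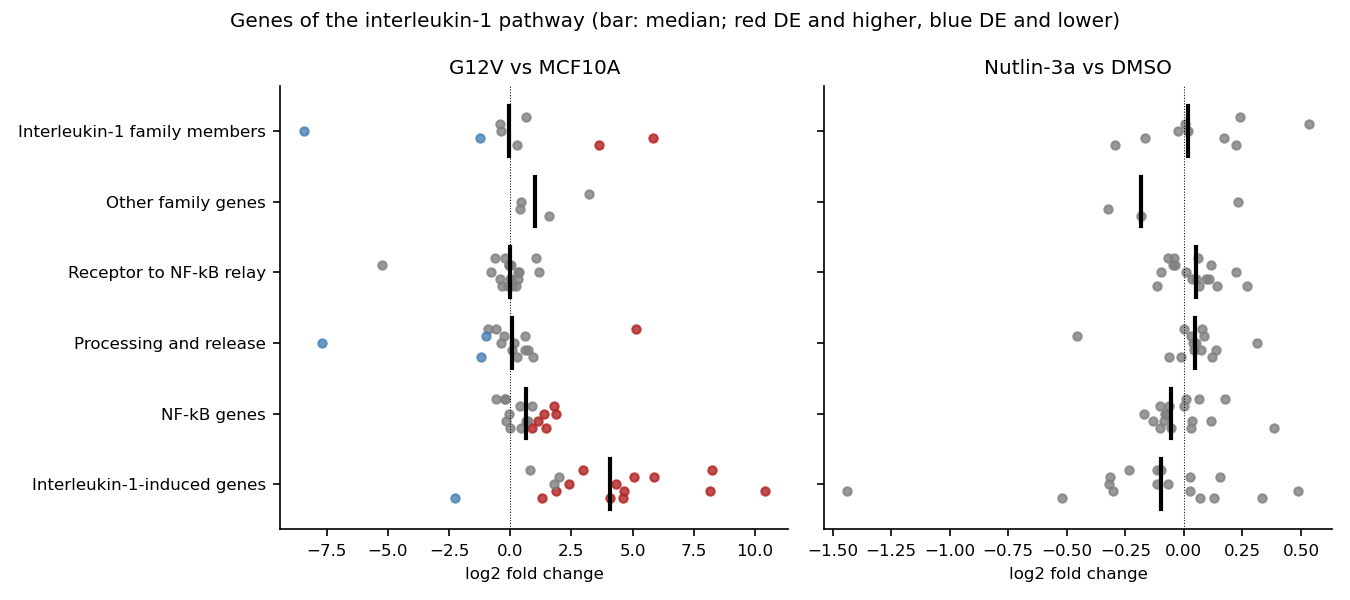
Log2 fold change of each tested gene of the pathway lists, with a bar at the median of the list, in G12V against MCF10A cells on the left and Nutlin-3a against DMSO on the right. On the left the median of the genes known to be induced by interleukin-1 was 4.06 and that of the NF-kB genes 0.65, while the relay list lay at -0.0083. On the right no gene of these lists was DE.

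The ligand cluster on chromosome 2 held calls in both directions. In the ligand cluster, with neighbours, 7 genes were tested, of which IL1A and IL1B were higher, IL1RN lower and 4 not DE. In the receptor cluster, also on chromosome 2, 8 genes were tested and 1 was DE, where 11.0% of all genes tested were. This was SLC9A2, a sodium-proton exchanger gene next to it, with a log2 fold change of 2.91 (edgeR quasi-likelihood adjusted p = 0.0115). IL1R1, IL1R2, IL1RL1 and IL18R1 were not DE. Of the 8 genes 6 had a log2 fold change above 0, with a median of 0.38, and whether they moved together was not tested.

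The second comparison asks whether the family responds to p53 activation in parental cells. None of the 9 genes was DE after 4 h of Nutlin-3a, where 0.170% of the 13529 genes tested were DE, so the count of 0 in 9 lay close to the background. In the fit without a block none had an unadjusted p under 0.05 in edgeR's quasi-likelihood test. None was DE with DESeq2 or with edgeR's exact test, also without a block. With the replicate number as a block, which made 1.22% of all genes DE, again none of the 9 was. The block gave smaller SEs, with log2 fold changes of 0.23 (SE 0.076) for IL1A, -0.29 (SE 0.093) for IL1R1 and 0.56 (SE 0.16) for IL1RL1. Without the block the log2 fold changes of IL1A, IL1B and IL33 were 0.22 (SE 0.29), 0.17 (SE 0.46) and 0.24 (SE 0.67). Those of IL18 and IL1RAP were 0.0058 (SE 0.13) and 0.018 (SE 0.12).

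IL1A had 250, 457 and 261 CPM with DMSO and 275, 516 and 340 CPM with Nutlin-3a. It was higher with Nutlin-3a than with DMSO in each of the 3 replicate numbers, by 0.13, 0.17 and 0.38 on the log2 scale, and the block fit gave 0.23 (SE 0.076, edgeR quasi-likelihood adjusted p = 0.205). IL1B had 260, 658 and 693 CPM with DMSO and 263, 691 and 859 CPM with Nutlin-3a. The differences within a number were 0.012, 0.071 and 0.31, small beside the range of 1.41 among the DMSO libraries.

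IL1R1 had 27.8, 40.9 and 29.6 CPM with DMSO and 25.1, 32.5 and 22.4 CPM with Nutlin-3a. It was lower in each of the 3 numbers, with a log2 fold change of -0.29 (SE 0.093, edgeR quasi-likelihood adjusted p = 0.185 with the block). IL1RAP had 51.2, 65.3 and 61.2 CPM with DMSO and 56.0, 64.1 and 59.9 CPM with Nutlin-3a. Its level was the steadiest of the receptors, and the groups overlapped. IL1R2 had 12 to 20 reads with DMSO and 12 to 17 reads with Nutlin-3a, too few for a small difference to be detectable. The reads of IL1R2 for each 1000 of IL1R1 were 39.8, 28.5 and 23.7 with DMSO and 31.9, 32.4 and 35.2 with Nutlin-3a (p = 0.6, exact permutation test, two-sided, where 3 against 3 libraries cannot go below 0.1). IL18 had 108 to 144 CPM with DMSO and 121 to 142 CPM with Nutlin-3a.

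Of the other genes of the pathway, none of the relay, processing, NF-kB or interleukin-1-induced lists was DE after Nutlin-3a, with 17, 14, 17 and 17 genes tested. With the block LIF, a cytokine of the interleukin-6 family that p53 is known to induce, was DE, with a log2 fold change of 0.66 (SE 0.14, edgeR quasi-likelihood adjusted p = 0.0326). In the ligand cluster CKAP2L, a mitotic spindle gene beside IL1A, was DE and lower with the block, by -0.58 (edgeR quasi-likelihood adjusted p = 0.00603).

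IL1RL1, IL1RN, IL33 and IL1B differed far more between replicate numbers than between treatments. IL1RL1 had 5, 214 and 63 reads in DMSO replicates 1, 2 and 3, or 0.277, 13.1 and 3.68 CPM, and 9, 295 and 87 reads with Nutlin-3a, or 0.554, 18.3 and 5.73 CPM. In each number IL1RL1 was higher with Nutlin-3a, by 1.0, 0.48 and 0.64 on the log2 scale. The block fit gave 0.56 (SE 0.16, edgeR quasi-likelihood adjusted p = 0.122), and without the block the SE was 1.17.

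IL1RN went the other way, with 93, 15 and 17 reads in the DMSO libraries and 94, 4 and 14 reads in the Nutlin-3a libraries of numbers 1, 2 and 3. The number with most IL1RN was the one with least IL1B, IL33 and IL1RL1. For each 1000 reads of IL1A and IL1B together there were 10.1, 0.825 and 1.04 reads of IL1RN with DMSO and 10.8, 0.206 and 0.769 with Nutlin-3a (p = 0.6, exact permutation test, two-sided). As for the ratio of IL1R2 to IL1R1, the permutation did not keep the replicate numbers together. Its p-value therefore holds the spread between numbers. IL33 had 1.38, 3.99 and 7.23 CPM with DMSO and 1.60, 4.22 and 9.08 CPM with Nutlin-3a.

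The replicate number was then tested as a term of the edgeR fit that holds it as a block, a test chosen after these counts had been seen. A gene was counted when the adjusted p was under 0.05 and the largest difference between numbers above 0.5 on the log2 scale. This held for 16.7% of the 13529 genes, and for 5 of the 9 family members. The largest differences were 5.23 for IL1RL1, 3.21 for IL1RN, 2.44 for IL33, 1.56 for IL1B and 0.89 for IL1A, against a median of 0.32 over all genes, and IL1RL1 ranked 4 and IL1RN 25 of all genes by this size. IL18, IL1R1, IL1R2 and IL1RAP did not pass. What the numbers stand for, such as a day or a passage, is not given in the labels.

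**Figure D4:**
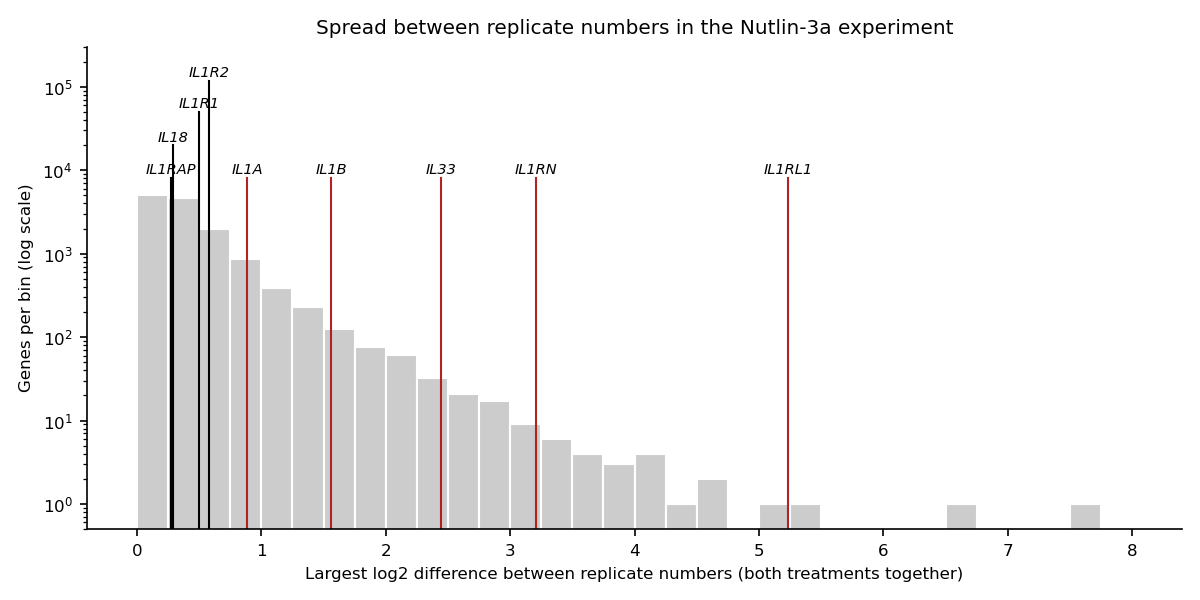
Number of genes by their largest log2 difference between replicate numbers in the Nutlin-3a experiment, in bins of 0.25 on a log axis of counts, with a line for each family member, red where the replicate number passed the test. Most genes lay below 0.5, with a median of 0.32, while IL1B, IL33, IL1RN and IL1RL1 lay between 1.56 and 5.23.

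Of the pathway lists, 15 of 17 interleukin-1-induced genes and 10 of 17 NF-kB genes also differed between the numbers, but 2 of 17 relay genes and 1 of 14 processing genes. CXCL8 had 65.8, 464 and 127 CPM in the DMSO libraries and 58.8, 494 and 136 CPM in the Nutlin-3a libraries, highest in number 2, which was also the number with most IL1A. IL1B was instead highest in number 3, at 693 CPM with DMSO and 859 CPM with Nutlin-3a. Of the epithelial markers 7 of 8 differed between numbers, with a summed level of the list from 3488 to 5948 CPM among the DMSO libraries. Of the 2 fibroblast markers tested DCN, which encodes decorin, differed by 3.18 on the log2 scale, whereas COL1A1 did not pass, at 0.25. Both leukocyte markers tested differed, CD14 with its lowest and CSF1R with its highest level in number 1. The part of these marker differences in those of the family was not tested.

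The parental cells of the 2 experiments did not hold IL1A and IL1B at like levels. With DMSO, parental MCF10A had 250 to 457 CPM of IL1A and 260 to 693 CPM of IL1B, about the levels of the untreated G12V cells, whereas untreated parental MCF10A had at most 35.6 and 10.4 CPM. The tables were normalized separately and counted on different annotations, so these levels are set side by side without a test. On the log2 scale, with 0.1 CPM added, DMSO minus MCF10A was 6.28 for IL1B, a size above that of 99.9% of 12052 genes tested in both tables, and 3.57 for IL1A, above 99.0%. For IL1RL1 it was -3.12, above 98.6% in size. The median size over these genes was 0.43. For IL1R2, at few reads, it was 1.19, above 86.5%, and for IL18, IL1R1, IL1RN and IL1RAP the size was at most 0.48. The epithelial gene CDH1 had 95.7 to 219 CPM with DMSO but 0.428 and 0.535 CPM in G12V cells. Some other epithelial markers differed between the parental cells of the 2 experiments. Mean KRT14, KRT17 and TP63 were 90.2, 241 and 22.3 CPM with DMSO and 412, 2066 and 167 CPM in untreated MCF10A. Mean KRT5 and EPCAM were closer, at 3922 and 70.2 CPM with DMSO and 4195 and 48 CPM in untreated MCF10A. The part of these marker levels in those of IL1A and IL1B was not tested. The interleukin-1-induced genes differed among themselves in this respect. CXCL8 had 65.8 to 464 CPM with DMSO and 218 and 360 CPM in G12V cells, and CSF3 172 to 578 CPM against 570 and 442 CPM. IL6 had at most 1.84 CPM with DMSO and 38.6 and 38.2 CPM in G12V cells, and TNFAIP2 at most 78.8 CPM against 221 and 345 CPM. The treatment with DMSO, the date and the culture cannot be told apart here.

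The genes with the pattern most like that of each member were sought over the 10 libraries, by the root mean square difference of log2 CPM after centring within each table, among 12052 genes. For IL1A these were ADAMTS9 at 0.29 and MEIS3 at 0.32, and for IL1B COL6A2 at 0.61 and C3AR1 at 0.63, where the medians over all genes were 1.24 for IL1A and 2.02 for IL1B. For IL1RN they were BSPRY at 0.60 and CLDN4 at 0.66, and for IL1RL1 DCN at 0.81 and CADM3 at 0.81, against medians of 1.78 and 1.71. IL18, IL1R1, IL1R2 and IL1RAP, which vary little, had neighbours at 0.085 to 0.13, namely CCDC92 and CASP9, PCDHB13 and GLIS2, SEMA4B and SLC25A37, and PCGF3 and PPIP5K1, against medians of 0.37 to 0.48. The measure is a description over libraries that share 2 experiments.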

How the data were processed

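Per the labels and the study's methods, poly(A) RNA was sequenced, and the authors aligned the reads with TopHat to hg19, counted them with HTSeq and deposited raw counts per gene, without normalization, in 2 tables on different annotations. The annotations and the strand setting are not given in the sources used here. In the annotation of the Nutlin-3a table IL1RL1 overlaps IL18R1 and IL18 overlaps SDHD, so reads there could have been lost or shared. Both tables hold 28 symbols that a spreadsheet had turned into dates.

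The libraries of a comparison entered one model, in R 4.3.3 with edgeR 4.0.16 and limma 3.58.1, after filterByExpr at its defaults, with TMM scaling, the quasi-likelihood F-test, Benjamini-Hochberg adjustment over all genes tested and a prior count of 0.125. SEs were obtained by dividing the size of the log2 fold change by the root of its F statistic, and CPM are on TMM-scaled library sizes. Folds are ratios of mean CPM. Where each library of a group had at most 3 reads, a fold is a lower bound, taken against the mean over the libraries of that group of the CPM that 3 reads give, and it covers counting error only. Lengths per kb are unions of GENCODE exons. The fits were tested on simulated counts. Python 3.11.15, numpy 2.4.6, pandas 2.3.3 and matplotlib 3.10.9 were used for the rest.

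The family members, the lists and the tests were chosen with earlier results of these data known. Named are the 9 members, HRAS, CDKN1A and MDM2, list genes that were DE or on which a result turns, and for each member tested in both tables the 2 genes nearest in pattern. Libraries of DMSO and Nutlin-3a that carry number 1, 2 or 3 in the labels deviated together from their groups, with correlations of 0.624, 0.603 and 0.639, and the numbers were taken to pair them. As alternatives served DESeq2 1.42.0, the exact test of edgeR, other scalings and filters, a prior count of 2, an unadjusted p under 0.05 with a fold above 1.3, the replicate number as a block and the omission of each library. ATAC-seq, ChIP-seq and 4C data were not analysed here, and 1 marker gene is not reported here.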

Additional observations from a re-analysis of the deposited data

How the results depend on the processing

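In G12V against MCF10A cells 1575 genes were DE, and 2536 with edgeR's exact test, 3676 with an unadjusted p under 0.05 and a fold above 1.3, and 4158 in the fit that blocks on the replicate number. Leaving out single libraries gave 0 to 2129 DE genes and 0 to 5 of the family members, the 0 without MCF10A replicate 1, whose omission left adjusted p-values of 0.0658 for IL1B, 0.123 for IL1A, 0.129 for IL1RN and 0.211 for IL1RAP in edgeR's quasi-likelihood test. The library left alone is then assumed to vary like the other group. IL1A, IL1B, IL1RN and IL1RAP were DE in the same direction under the other settings that kept all libraries. With the replicate block IL1R1 was DE as well, at 0.68 (adjusted p = 0.0108 in edgeR's quasi-likelihood test). Of the 19 relay genes 2 were then DE and higher and 3 DE and lower, where 4158 of the 14376 genes tested were DE. Libraries that share a number correlated at 0.494 in their deviations and the others at -0.494. With 2 libraries per group these values are tied together, so whether the numbers pair the libraries is not settled here. Without single libraries IL1R2 ran from -0.34 to 0.74, IL1RL1 from -1.60 to 0.29 and MDM2 from -0.17 to 0.13.

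In the Nutlin-3a experiment 23 genes were DE, and 88 with DESeq2, 84 with edgeR's exact test, 99 without a filter, 332 with the unadjusted p and 165 with the replicate block, while without single libraries it was 7 to 11. None of the family was DE in any of these fits, and the block changed no call of a member. IL18 was at -0.032 with library totals alone and -0.0011 without a filter, and IL1RAP at -0.017 with library totals alone. Without single libraries the log2 fold changes ran from -0.074 to 0.56 for IL1A, -0.17 to 0.53 for IL1B, -2.02 to 1.28 for IL1RN, -0.11 to 0.083 for IL18, -0.53 to 0.89 for IL33, -0.077 to 0.093 for IL1RAP and -0.87 to 2.05 for IL1RL1, and the log2 ratios of IL1RN to the agonists from -2.37 to 0.49 and of IL1R2 to IL1R1 from -0.022 to 0.35. These fits drop one library of a pair and hold no block. Within the pairs IL1A, IL1B, IL33 and IL1RL1 were higher with Nutlin-3a in all 3, whereas IL1RN, IL18, IL1RAP and both ratios differed in direction between pairs. Low counts limit IL33 and IL1R2 in the untreated cells and IL1R2 and IL1RN with Nutlin-3a.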
